A study of Homo sapiens with 4 samples.

Results

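Xbp1 and Asns are the mouse loci of a stress-responsive transcription factor and of asparagine synthetase, and they were taken by gene name from the tables of all 4 tumours. They are 2 of 23698 loci. Each name occurred once per table and carried the status OK in every library. The tumours were xenografts of MDA-MB-231 cells, a human line from a triple-negative breast cancer, injected under the skin of Balb/c nude mice, an immunodeficient strain that lacks a normal thymus. The efficient untreated tumour came from caspase-3 efficient cells and received no drug, and the efficient docetaxel tumour came from such cells in a mouse given docetaxel at 15 mg/kg once the tumour measured 12 square millimetres. The inhibited untreated and inhibited docetaxel tumours came from cells exposed in culture to Z-DEVD-FMK, which blocks caspase-3, and the latter also received docetaxel at that dose. Docetaxel is a taxane that stabilises microtubules. The labels used here give no ages of the mice, and how long caspase-3 stayed inhibited after grafting was not measured.

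Each condition was 1 library, so there is no replicate, and no p-value is given. All values are fragment numbers scaled to locus length and library size (FPKM) with the deposited lower and upper bounds, which cover error within a library and not differences between animals. Since the tables list mouse loci, a value counts fragments of the mouse host plus any fragments of the human cells that aligned to mouse sequence, and their separation is not recorded in the labels. In bulk tumour RNA, more cells of a type and more RNA per cell cannot be told apart.

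Secretory and membrane proteins fold in the endoplasmic reticulum (ER), and unfolded proteins there activate 3 sensors, IRE1, PERK and ATF6, in the unfolded protein response. IRE1 removes a short intron from Xbp1 messenger RNA, which gives the active XBP1 factor that raises genes of ER folding, transport and degradation. ATF6 raises the Xbp1 transcript itself. PERK, like the amino acid sensor GCN2, slows translation and favours production of ATF4, which raises genes of amino acid supply, Asns among them. Asparagine synthetase makes asparagine from aspartate and glutamine. The tables give 1 value per gene, so spliced and unspliced Xbp1 were not separated.

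The promoters of the human genes are shown because each holds the element through which these 2 arms of the response are known to act. They come from RefSeq on the human build GRCh38.p14, matched by symbol (2 of 2 genes), and mouse promoter sequence was not used here. Both stretches are the 150 bases before an annotated start, written 5′ to 3′ on the gene's strand, which is the minus strand for both: chr22:28800570-28800719 for XBP1 and chr7:97872409-97872558 for ASNS. Capitals mark the ER stress element in XBP1 (CCAAT and CCACG with 9 bases between them) and the ATF4-binding CARE letters TGATGAAAC in ASNS.

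XBP1: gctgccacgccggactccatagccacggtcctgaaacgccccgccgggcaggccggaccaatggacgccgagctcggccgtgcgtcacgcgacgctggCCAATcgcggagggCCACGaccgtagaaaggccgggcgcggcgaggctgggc
ASNS: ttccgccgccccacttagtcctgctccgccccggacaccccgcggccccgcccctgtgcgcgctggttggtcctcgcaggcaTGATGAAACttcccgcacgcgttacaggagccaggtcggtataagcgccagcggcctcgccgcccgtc

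The ER stress element lies at positions -52 to -34 of XBP1, counted back from the base before the start as -1, and the CARE letters lie at -68 to -60 of ASNS. Each gene has 2 annotated start windows, and the match is in 1 of the 2. The motifs do not overlap one another, and neither gene holds the other's motif on either strand of its windows. Among 35116 windows of 250 bases before human gene starts, searched on both strands, 0.0740% held the ER stress element and 0.196% held TGATGAAAC. These matches are letters in the human sequence and were not measured in the tumours.

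Xbp1 was among the most abundant mouse loci in all 4 tumours, and its 2 docetaxel libraries were the higher ones. The locus lies on chromosome 11 at 5420970 to 5425875 in mm9. Its level was 32.4 FPKM (deposited bounds 19.9 to 44.3) in the efficient untreated library and 94.96 (68.6 to 114) in the efficient docetaxel library. It was 44.8 FPKM (28.6 to 60.9) in the inhibited untreated library and 80.4 (53.1 to 106) in the inhibited docetaxel library. Both docetaxel values lay above both untreated values, although the bounds of the inhibited pair overlapped. In order of level, each library's bounds overlapped those of the next, while the bounds of the efficient untreated library lay wholly under those of both docetaxel libraries. The widths of the bounds correspond to about 28.4, 69.9, 30.8 and 36.7 independent fragments in the order efficient untreated, efficient docetaxel, inhibited untreated and inhibited docetaxel, which is kept below. Xbp1 ranked 93, 43, 67 and 50 from the top among the 2255, 2776, 2000 and 1842 loci above 0 in those libraries.

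Asns was present at a lower level per length than Xbp1 in every library, and again the docetaxel libraries were the higher ones. The locus lies on chromosome 6 at 7625171 to 7643182 in mm9. Its level was 2.31 FPKM (0 to 5.17) in the efficient untreated library, 15.1 (8.49 to 21.6) in the efficient docetaxel library, 7.78 (2.32 to 12.8) in the inhibited untreated library and 22.5 (10.9 to 34.1) in the inhibited docetaxel library. The 2 genes differed in which library was at the top, since Asns was highest in the inhibited docetaxel library and Xbp1 in the efficient docetaxel library. Neighbours in the order of Asns levels had overlapping bounds, and the efficient untreated library lay wholly under both docetaxel libraries. The bounds correspond to about 2.61, 21.1, 8.88 and 15.0 fragments, so the efficient untreated level, against which 2 of the comparisons below are made, rests on about 3 fragments.

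**Figure D1:**
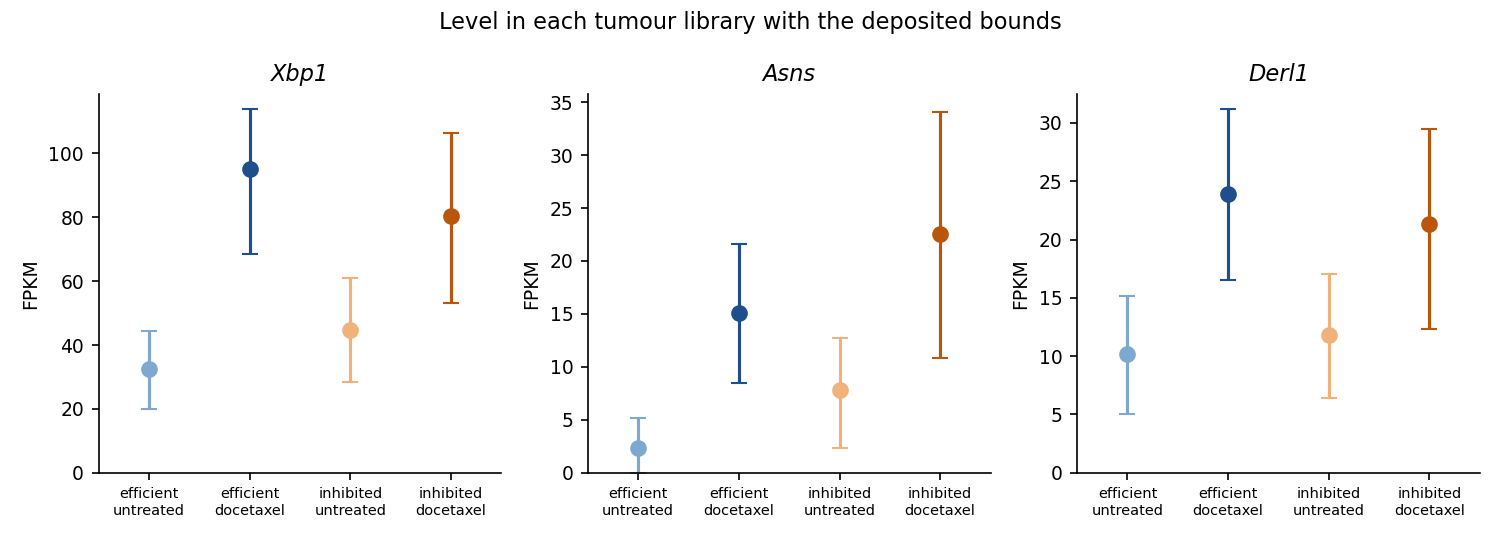
FPKM of Xbp1, Asns and Derl1 (vertical axes, each from 0) in the 4 tumour libraries (horizontal axes). Points are the deposited values and bars the deposited bounds. Both docetaxel libraries lie above both untreated libraries for each gene, and Asns is highest in the inhibited docetaxel library at 22.5 FPKM. Derl1 is 1 of 6 measured XBP1-linked ER genes, and the others did not show this order. It alone of them was called higher for docetaxel in efficient tumours. That call was lost after median scaling, quantile normalization and scaling to Col1a2.

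The ratio of Xbp1 to Asns within a library is not changed by multiplying a library by 1 factor, as median scaling does, though quantile normalization changes it. It was 14.0 in the efficient untreated library, 6.30 in the efficient docetaxel library, 5.76 in the inhibited untreated library and 3.57 in the inhibited docetaxel library. Asns was thus larger relative to Xbp1 in the other 3 libraries than in the efficient untreated one. The deposited bounds of the 2 genes allow ratios of 3.17 to 13.4, 2.24 to 26.2 and 1.56 to 9.79 in the last 3 libraries and of 3.85 or more in the first, so these ratios were not separated.

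Docetaxel and untreated tumours of caspase-3 efficient cells were compared first. Xbp1 was 2.93-fold higher in FPKM with docetaxel, a difference of 1.52 on the log2(FPKM + 1) scale (approximate 95% interval 0.91 to 2.14, from the deposited bounds). Asns was 6.52-fold higher in FPKM, a log2 difference of 2.28 (0.93 to 3.63), and its interval is wide because the untreated value rests on few fragments. A call required a difference of 2-fold or more on this scale, bounds that did not overlap and a level of 5 FPKM in 1 of the 2 libraries at the least. Both genes were called higher, where 8.10% of the 667 loci compared were called higher. The median log2 difference of those loci was 0.34, so the whole set lay toward docetaxel and the 2 genes lay above it by more than that shift. By difference Xbp1 ranked 65 and Asns 42 from the top of the 667 loci, and 34 and 11 among the 628 above 0 in both libraries. Asns reached 5 FPKM in the docetaxel library alone, so it could enter this comparison only with a higher value there. Level-matched loci were those of the loci compared that were above 0 in both libraries, with a mean level within 2-fold of the gene's. Of these, 3 of 84 had a larger difference than Xbp1 and 2 of 389 a larger one than Asns.

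The direction and both calls held after median scaling, quantile normalization and scaling to Col1a2, a collagen gene, although the sizes fell. Xbp1 was then at log2 differences of 1.26, 1.10 and 1.05 in that order, and Asns at 2.06, 2.12 and 1.89. The calls across all loci shifted from 54 higher and 6 lower as deposited to 37 and 14 after median scaling, 36 and 17 after quantile normalization and 32 and 22 on the Col1a2 scale. At a 3-fold threshold Xbp1 was no longer called and Asns was.

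In tumours of caspase-3 inhibited cells both genes were also at higher values with docetaxel, by less, and neither was called. Xbp1 was at 1.80-fold its untreated FPKM, a log2 difference of 0.83 (0.15 to 1.51). Asns was at 2.89-fold, a log2 difference of 1.42 (0.33 to 2.52). The approximate intervals lie above 0, while the deposited bounds overlapped for both genes, and Xbp1 was also under 2-fold on this scale. Of the 630 loci compared 5.56% were called in either direction, with a median difference of 0.37. Among level-matched loci 15 of 80 had a larger difference than Xbp1 and 22 of 273 a larger one than Asns. Scaling lowered the Xbp1 difference to 0.42 (median), 0.39 (quantile) and 0.20 (Col1a2), and the Asns difference to 1.04, 1.13 and 0.83. The all-locus calls went from 24 higher and 11 lower to 12 and 19, 15 and 18, and 7 and 34 under these scalings.

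The 2 docetaxel differences of each gene come from separate pairs of libraries, and their difference was not resolved. For Xbp1 the docetaxel difference was smaller by 0.69 on the log2 scale in inhibited tumours, with a difference of -0.69 (approximate interval -1.61 to 0.22). For Asns it was -0.86 (-2.60 to 0.88), and it ran from -0.35 with a pseudocount of 5 to -1.13 with one of 0.1. Both intervals include 0. The background was 642 loci above 0 with status OK in all 4 libraries and at 5 FPKM or more in any of them. Of these, 292 had a larger absolute value than Xbp1 and 237 a larger one than Asns. The mean of the 2 docetaxel differences, computed after the values were seen, was 1.18 for Xbp1 (0.72 to 1.63) and 1.85 for Asns (0.98 to 2.72). Ranked by that mean among the 642 loci, whose median was 0.30, Asns was number 6 and Xbp1 number 35. The Xbp1 mean was 0.84 after median scaling, 0.75 after quantile normalization and 0.62 on the Col1a2 scale, at numbers 38, 51 and 43, and the Asns mean was 1.55, 1.63 and 1.36, at number 6 in each.

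**Figure D2:**
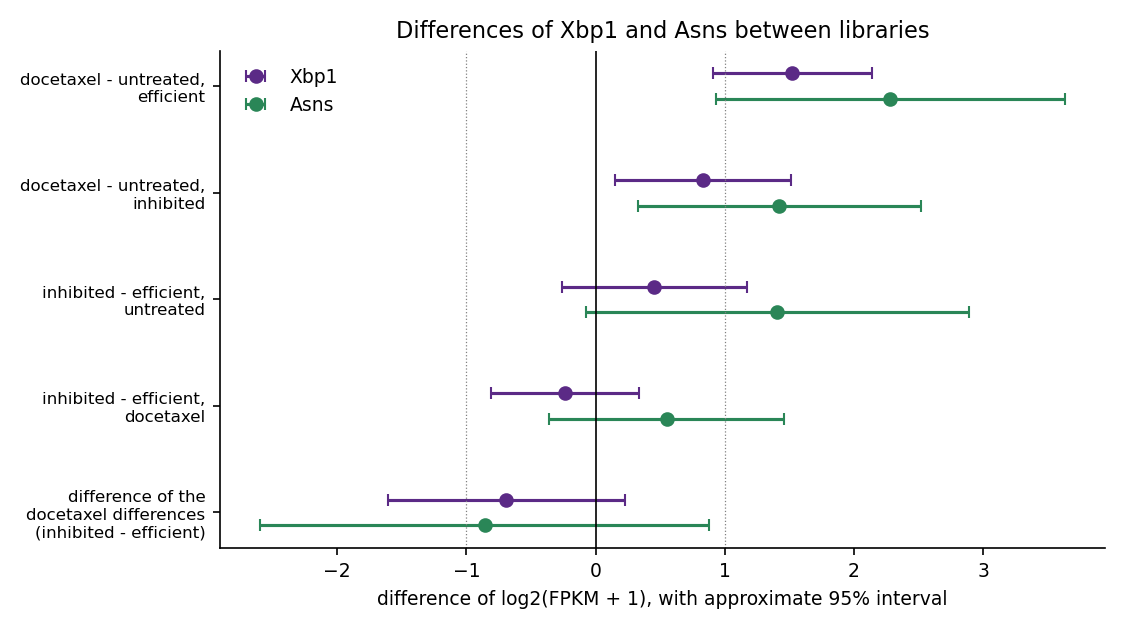
Differences of log2(FPKM + 1) for Xbp1 and Asns in the 4 comparisons and for the difference of the docetaxel differences (horizontal axis). Points are the differences, bars the approximate 95% intervals from the deposited bounds, and dotted lines mark 2-fold. The 4 docetaxel intervals lie above 0 and the other 6 include 0.

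Inhibited and efficient tumours without drug differed less clearly for both genes. Xbp1 was at 44.8 against 32.4 FPKM, a log2 difference of 0.45 (-0.26 to 1.17). Asns was at 7.78 against 2.31 FPKM, a log2 difference of 1.41 (-0.07 to 2.89), which passes 2-fold but not the criterion on bounds. With a pseudocount of 5 that Asns difference was 0.81, under 2-fold. Neither was called, where 5.86% of 597 loci were called in either direction. Asns reached 5 FPKM in the inhibited library alone of this pair, so it could enter the comparison only with a higher value there. Of level-matched loci 19 of 98 had a larger difference than Xbp1 and 12 of 297 a larger one than Asns.

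With docetaxel, Xbp1 was at 80.4 FPKM in the inhibited and 94.96 in the efficient library, a log2 difference of -0.24 (-0.81 to 0.33). Asns was at 22.5 against 15.1, a log2 difference of 0.55 (-0.36 to 1.46). Neither was called, where 13.3% of 701 loci were called in either direction. The intervals allow Xbp1 a lower level by up to 0.81 or a higher one by up to 0.33, so they do not show equal levels. Averaged over both treatment states after the values were seen, the inhibited minus efficient difference was 0.11 for Xbp1 (-0.35 to 0.57) and 0.98 for Asns (0.11 to 1.85). The comparisons of inhibition share all 4 libraries with those of docetaxel and are not separate evidence.

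**Figure D3:**
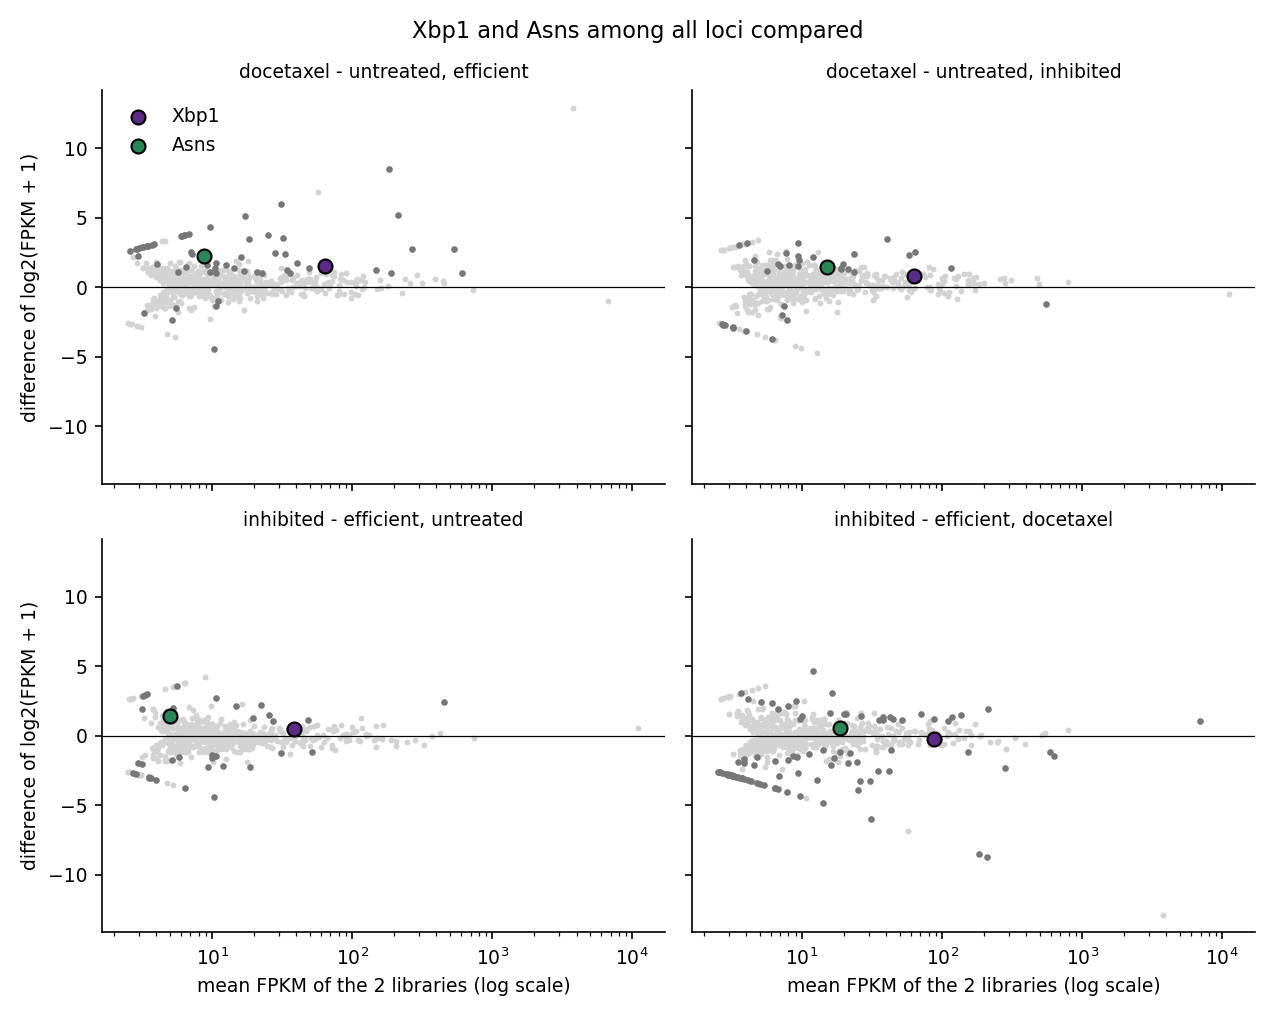
Difference of log2(FPKM + 1) (vertical axis) against the mean FPKM of the 2 libraries (horizontal, log scale) for every locus compared in each of the 4 comparisons. Light points are loci not called, dark grey points loci called, and the large points Xbp1 and Asns. Both members lie above the bulk of loci at their level for docetaxel in efficient tumours, at 1.52 and 2.28.

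Most other genes of the response could not be read. Of 156 further genes in 7 lists, covering sensors, XBP1-linked ER genes, ATF4-linked stress genes, amino acid synthesis and transport, aminoacyl-tRNA synthetases and cytosolic heat shock genes, 18 reached 1 FPKM in a library and 126 were listed at 0 in all 4. Genes that every cell uses are also listed at 0 in these tables, so a listed 0 gives no level.

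Of the 14 sensors and transducers, 2 were measured, Xbp1 and Creb3l3, an ER-membrane transcription factor gene known from liver. Creb3l3 was at 4.79, 4.39, 3.22 and 2.87 FPKM and was too low to be compared. The genes of the sensors IRE1, PERK and ATF6 gave no measured value.

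Of the 44 XBP1-linked ER genes 6 were measured and 4 could be compared for docetaxel in efficient tumours, where 1 was called higher and 0 lower, beside 8.10% and 0.900% of all loci, with a median of -0.65 against 0.34 over all loci, Sec61g at a listed 0 included. The called gene was Derl1, which encodes a membrane protein of ER-associated degradation. Derl1 was at 10.2 FPKM (5.07 to 15.2) in the efficient untreated library and 23.9 (16.6 to 31.2) in the efficient docetaxel library. It was at 11.8 FPKM (6.40 to 17.1) in the inhibited untreated library and 21.3 (12.4 to 29.5) in the inhibited docetaxel library. As for Xbp1, the 2 docetaxel libraries were the higher ones, with log2 differences of 1.16 in efficient and 0.80 in inhibited tumours, the latter not called. The efficient call of Derl1 was lost after median scaling (0.91), quantile normalization (0.78) and scaling to Col1a2 (0.71).

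Values of the other measured ER genes did not show that order. Apart from Syvn1, they were measured too poorly to say that they differ from it. Syvn1, encoding the ubiquitin ligase of ER-associated degradation, was at 10.3, 7.82, 7.71 and 11.3 FPKM, with overlapping bounds in all libraries. Its bounds in the efficient untreated library (5.37 to 15.3) were about as wide as those of Derl1 there (5.07 to 15.2). The log2 docetaxel differences of Syvn1 were -0.36 in efficient and 0.50 in inhibited tumours, against 1.16 and 0.80 for Derl1. Syvn1 was not called. Hspa5, the main ER chaperone gene, was at 5.78, 2.51, 8.34 and 1.28 FPKM. Its values were lower in the docetaxel libraries, with lower bounds of 0 there and overlapping bounds, and it was not called. Sec61g and Sec61b encode subunits of the channel through which proteins enter the ER. Sec61g was at 10.8, 0, 12.2 and 10.8 FPKM, and Sec61b was at 12.8 in the inhibited untreated library and listed at 0 in the others. Creld2 was at 1.71 FPKM in the efficient untreated library and listed at 0 in the others. All lower bounds of these genes were 0, and a listed 0 gives no level, so their patterns cannot be read. For docetaxel in inhibited tumours 5 of the ER genes could be compared and 0 were called, beside 5.56% of all loci in either direction. With 5 genes, 0 calls cannot be told apart from that share. Their median was -0.15 against 0.37 over all loci.

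Of the 24 ATF4-linked genes 3 were measured, and the 2 that could be compared for docetaxel in efficient tumours were called higher, beside 8.10% of all loci, with a median of 2.70 against 0.34 over all loci, which includes a listed 0. These were Asns itself and Stc2, a secreted glycoprotein gene. Both reached 5 FPKM in the docetaxel library alone of that pair. Their differences therefore had to be positive and a lower call was not possible, so neither the calls nor the median are separate evidence. Stc2 was listed at 0, then at 7.71 FPKM (3.32 to 12.4), 1.41 and again 0 in the order of the libraries, so it was called against a listed 0 and its difference has no known size. Its values did not follow Asns in the inhibited tumours, where the docetaxel library lists 0. Gdf15, a stress-induced cytokine gene, was at 2.26 FPKM in the efficient untreated library and listed at 0 in the rest.

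Of the 27 amino acid synthesis genes 4 were measured, and the 2 that could be compared for docetaxel in efficient tumours were called higher, beside 8.10% of all loci, with a median of 3.04 against 0.34. These were Asns, already counted in the ATF4 list, and Pcx. Here too both reached 5 FPKM in the docetaxel library alone of that pair. Their differences had to be positive and a lower call was not possible, so neither the calls nor the median are separate evidence. Pcx encodes pyruvate carboxylase, which feeds the pool of oxaloacetate from which aspartate is made. It was at 2.54, 48.0, 1.71 and 2.28 FPKM, high in the efficient docetaxel library alone among the 4, whereas Asns was high in both docetaxel libraries. Of 14 transporters 3 were measured and of 20 synthetases 1, all too low to be compared. In inhibited tumours Asns was the 1 member of either list that could be compared for docetaxel.

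By the root mean square difference of centred log2(FPKM + 1) over the 4 libraries, Derl1 was also the locus most like Xbp1 among 324 at 5 FPKM or more in every library, at 0.14. Grb10 (5.30, 15.7, 6.86 and 10.5 FPKM) and Thoc1 (5.73, 13.4, 7.35 and 13.0) followed at 0.15, then Cnn2 at 0.16 and Wsb1 at 0.19. Each of these had lower values in the untreated than in the docetaxel library of its state. Likeness over 4 libraries is a description, since any locus with such an order of levels comes close.

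The nearest loci found for Asns were less like it than those found for Xbp1. Candidates had to reach 5 FPKM in every library, which Asns itself did not, so loci with as low a level were left out. The 5 nearest of 325 were Snhg4, a noncoding host of small nucleolar RNAs (10.5, 24.7, 14.1 and 41.0 FPKM), at 0.45, the collagenase gene Mmp13 at 0.48, the protease inhibitor gene Tfpi2 (10.7, 23.6, 18.8 and 34.3) at 0.50, Xbp1 itself at 0.55 and Pcdhgc3 at 0.57. Snhg4, Tfpi2 and Pcdhgc3 were highest in the inhibited docetaxel library, as Asns was. Pcdhgc3 shares exons with its gene cluster, so its reads may be divided with other members. Asns, under 5 FPKM in 1 library, would take place 141 in the likeness to Xbp1.

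Both members lie near the start of a chromosome, and loci with values were crowded around each of them in these tables. Of the 20 loci around Xbp1 (10 on each side) 13 had a value above 0 in 3 or more libraries, and around Asns 10 of 20 had, against 6.73% of all 23698 loci. Around Derl1, which lies at 57701057 to 57723973 on chromosome 15, 5 of 20 had.

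The measured neighbours of Xbp1 had smaller docetaxel differences than it in efficient tumours. Among 10 neighbours that reached 5 FPKM, the docetaxel differences in efficient tumours ran from -0.55 to 1.00 with a median of 0.22, 0 were called, beside 8.10% of all loci called higher, and 0 exceeded Xbp1. The 3 nearest measured loci after Xbp1 were Ccdc117 at 1.00, Mrps24 at 0.74 and Urgcp, under 5 FPKM, at 0.04. Those before it were Rhbdd3 at -0.55, Kremen1 at -0.53 and Znrf3, also under 5 FPKM, at -0.41. Farther on after Xbp1 were Dbnl at 0.85 and Aebp1 at 0.22. Of the 10 neighbours, Ewsr1 (61.6, 72.3, 105 and 88.4 FPKM), which lies before Xbp1, and Aebp1 (58.5, 68.1, 45.9 and 50.5) had levels like that of Xbp1. In inhibited tumours the median was -0.06, and 1 of the 10, Ccdc117, exceeded Xbp1. Ccdc117 begins 7.92 kb after the start of Xbp1 and was at 1.87, 4.72, 1.40 and 6.54 FPKM, with differences of 1.00 and 1.65 and no call.

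Near Asns 5 neighbours reached 5 FPKM, with a median docetaxel difference of 0.64 in efficient and 0.35 in inhibited tumours. Of these 1, Acn9, was called higher in efficient tumours, beside 8.10% of all loci. It was called from a listed 0 to 34.3 FPKM, and its difference has no known size. Shfm1, at -1117 kb from the start of Asns and well measured, was at 401, 507, 450 and 528 FPKM. C1galt1, the nearest measured locus after Asns, was at 2.14, 7.37, 2.40 and 4.81 FPKM and was not called. In efficient tumours 1 of the 5, Acn9, exceeded Asns, and in inhibited tumours 0 of the 5 did.

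**Figure D4:**
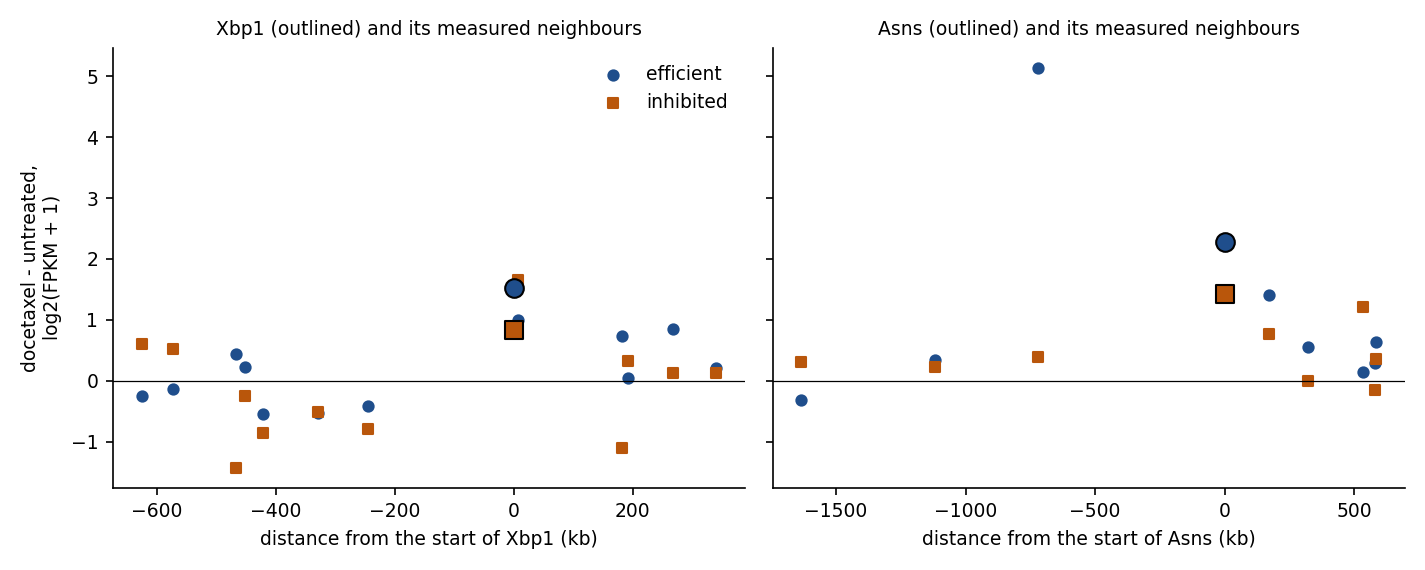
Docetaxel minus untreated difference of log2(FPKM + 1) (vertical axis) against distance from the start of Xbp1 or Asns in kb (horizontal axis), for neighbours above 0 in at least 3 libraries that reached 5 FPKM or were among the 3 nearest on their side. Circles are efficient and squares inhibited tumours, and the outlined symbols are the members. Xbp1 in efficient tumours, at 1.52, lies above each of its neighbours in those tumours, and in inhibited tumours Ccdc117 lies above it.

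Markers of other cell types were read from few genes. Of 12 plasma and B cell markers, a lineage with high Xbp1, Sdc1 alone was measured, at 4.89, 2.12, 3.92 and 3.14 FPKM, and 9 of the 10 that the tables hold were listed at 0 in all 4 libraries. Summed adipocyte markers (2 of 8 measured) were at 10.5, 419, 0 and 0 FPKM, and summed erythroid loci (3 measured, all alpha globin) at 207, 1766, 935 and 427. The adipocyte sum was nearly all Retn, at 417 FPKM in the efficient docetaxel library. The fibroblast sum was 369, 515, 371 and 579, nearly all of it Col1a2, which was at higher values with docetaxel by 0.48 and 0.64 without being called. The endothelial sum was 2.86, 1.85, 0.73 and 3.30, and the macrophage sum 0.389, 0.293, 0.437 and 0.584. The carcinoma sum was the mouse locus Cldn4 alone, at 5.71 in the efficient docetaxel library and 0 elsewhere. Muscle and keratinocyte markers were listed at 0. Adipocyte and erythroid sums were highest in the efficient docetaxel library, as Xbp1 was, while in the inhibited pair the adipocyte loci were listed at 0 in both and the erythroid sum was lower with docetaxel. Their part in the Xbp1 and Asns values was not tested.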

How the data were processed

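RNA of 4 xenograft tumours was sequenced, 1 library per condition. Libraries were made from RNA depleted of ribosomal RNA and run on a MiSeq, per the labels' protocols. The authors deposited FPKM with confidence bounds and a status per locus, per the file headers, made with TopHat and Cufflinks on the mouse build mm9, per the submitters' processing notes. Their versions and the total read numbers are not stated in those notes.

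Starts were raised by 1, as such tables count from 0. Differences are of log2(FPKM + 1), which understates low genes. Bounds were read as 2 standard errors to each side, converted to the log2 scale and combined in quadrature, and the fragments behind a value as the square of 2 × FPKM over that one-sided width, both rough. Where the lower bound was 0 the upper side was used. A call needed 2-fold, bounds apart, status OK and 5 FPKM. No test was made, since each condition was 1 library. List members counted as measured from 1 FPKM, with at most 6 named per list by mean level. The 5 loci nearest in pattern (spanning 500 bp or more, without predicted or clone names) and the 3 nearest measured neighbours per side were eligible for naming. The further neighbours Ewsr1, Aebp1 and Dbnl were picked after their values were seen. Members and lists were chosen with earlier results of these data known. Settings tried were pseudocounts of 0.1 and 5, minimums of 1 and 20 FPKM and none, median scaling, quantile normalization, no criterion on bounds, 3-fold, and, added after seeing the data, scaling to Col1a2. Python 3.11.15, numpy 2.4.6, pandas 2.3.3 and matplotlib 3.10.9 were used.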

Additional observations from a re-analysis of the deposited data

How the results depend on the processing

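Over 10 other settings, where they could be applied, each difference of Xbp1 and Asns kept its sign. Of 88 recomputed values, 85 kept their call or, for the differences of the docetaxel differences, moved by less than their standard error. Many of these outcomes were fixed in advance. The minimums, the bounds criterion and the fold threshold leave a difference itself unchanged. A pseudocount cannot change the sign of a difference between libraries. Only median scaling, quantile normalization and scaling to Col1a2 could change such a sign. With no criterion on bounds, Asns was called for docetaxel in inhibited tumours (1.42) and for inhibition without drug (1.41), and at 3-fold Xbp1 lost its call for docetaxel in efficient tumours (1.52). With a minimum of 20 FPKM, Asns could not be compared for docetaxel in efficient tumours or for inhibition without drug. Across scalings and pseudocounts the Asns difference for docetaxel in efficient tumours ran from 1.46 to 2.65. Counts of loci called depended on the rule. As deposited, 60, 35, 35 and 93 were called for docetaxel in efficient and in inhibited tumours and for inhibition without and with docetaxel. A minimum of 1 FPKM, or none, gave 91, 53 and 142 for the first, the third and the fourth. A minimum of 20 FPKM gave 25, 13, 12 and 40, and no criterion on bounds 187, 184, 142 and 240. Depth limits Asns most, whose lowest level rests on about 3 fragments.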

Other observations

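Cytosolic heat shock genes were the list beside the unfolded protein response with a measured member at levels like that of Asns. Ahsa2, related to an activator of the Hsp90 chaperone, was listed at 0 in the efficient untreated library, at 5.87 FPKM (2.22 to 9.75) in the efficient docetaxel library, 6.65 (1.97 to 11.2) in the inhibited untreated library and 14.2 (6.15 to 22.8) in the inhibited docetaxel library. It had the highest value where Asns had it. It was called higher for docetaxel in efficient tumours and for inhibition without drug, both against the listed 0, so these differences have no known size. In inhibited tumours the docetaxel difference was 0.99 and was not called, and it was 0.62, 0.76 and 0.41 after median scaling, quantile normalization and scaling to Col1a2. Of the 16 genes in the list 2 were measured, the other being Hsp90ab1, which reached 1.94 FPKM.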
